A study of Caenorhabditis elegans with 2 samples.

Results

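The ceh genes are the Caenorhabditis elegans genes named for a homeobox, the stretch of DNA that encodes the homeodomain of a transcription factor. They were taken here as the protein-coding genes of the Ensembl WBcel235 annotation whose symbol starts with ceh-. The Hox gene ceh-13, the TALE and Pbx-type genes ceh-20, ceh-40 and ceh-60, and the sine oculis-type gene ceh-34 were left out. The rule gave 58 genes of 19973. The RefSeq product name of all 58 names a homeobox, a homeodomain or a Onecut protein, which fits the name of the set.

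ChIP-seq was used to map where UNC-62, the worm Meis-type homeodomain factor, sits on the genome of whole L1 larvae, the first larval stage. There was 1 group, UNC-62 L1, with 2 samples labelled as biological replicates 1 and 2. Per the labels both came from strain OP600, of mixed sex and unknown age, which carries the unc119(ed3) allele. Its transgene insertion wgIs600 joins unc-62 to the tags TY1, EGFP and FLAG and also carries unc119. The labels name the antibody only as unc-62 and describe the experiment as directed against eGFP-unc-62, and they do not name the promoter of the transgene. Whole animals were used, so binding in few cells and weaker binding in many cells cannot be told apart.

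Homeodomain factors bind DNA and set which genes a cell transcribes. In C. elegans they are best known for neurons, where each neuron class is marked by its own combination of homeobox genes, and for muscle, skin and embryonic lineages. Meis-class proteins bind the hexamer TGACAG and often act with Pbx-class and Hox partners. The question put to the lists was where UNC-62 signal lies around the genes of these other homeodomain factors.

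The deposited data were ranked lists of intervals, each with a signal value that is the authors' own measure of enrichment. The pooled list and each replicate list ran to 30000 intervals, all equally wide (336 bp when pooled), and weak entries are included, so presence alone is not evidence of binding. Signal ran from 9.05 to 128 in the pooled list, with a median of 11.9. It ran from 5.17 to 55.2 in replicate 1, with a median of 7.05, and from 5.33 to 86.9 in replicate 2, with a median of 7.22. The IDR list, which the authors thresholded by the irreproducible discovery rate, held the 119 strongest pooled entries, and the lowest of these had a signal of 35.04. Read depth is unknown.

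Each gene was given a window from 5 kb upstream of its 5′ end to its 3′ end, and each entry was placed by its summit, the middle of the interval. The ceh windows held 138 distinct pooled entries. Of the 58 ceh genes, 47 had at least 1 pooled entry (81.03%, exact 95% interval 68.6 to 90.1), against 85.0% of the 19915 other genes and 84.9% of all genes. Where each entry was given only to the gene with the nearest 5′ end, the order turned, with 41 ceh genes (70.7%, interval 57.3 to 81.9), against 59.9% of the other genes. By window, the 47 genes with an entry had 46 distinct strongest entries, because ceh-21 and ceh-41 share theirs. The ceh genes with the highest signals were ceh-5 at 31.97, ceh-38 at 23.9, ceh-57 at 20.6, ceh-24 at 20.2 and ceh-48 at 20.02.

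None of the 58 ceh genes held an IDR peak in its window (0%, exact 95% upper bound 6.16%), against 248 of the other genes (1.25%), and 1.24% of all genes did so. A single ceh gene, ceh-5, had an entry among the first 500 of the pooled list (1.72%, interval 0.0436 to 9.24), against 4.25% of the other genes and 4.25% of all genes. Among the first 1000 entries there were 2 ceh genes, ceh-5 and ceh-38 (3.45%), against 7.91% of the other genes and 7.90% of all genes. Among the first 2000 there were 8 (13.8%, interval 6.15 to 25.4), against 14.6% of the other genes and 14.6% of all genes. At every rank limit the share of other genes lay inside the interval of the ceh share, so at this number of genes no difference from the background was detectable. All intervals cover counting error only.

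**Figure D1:**
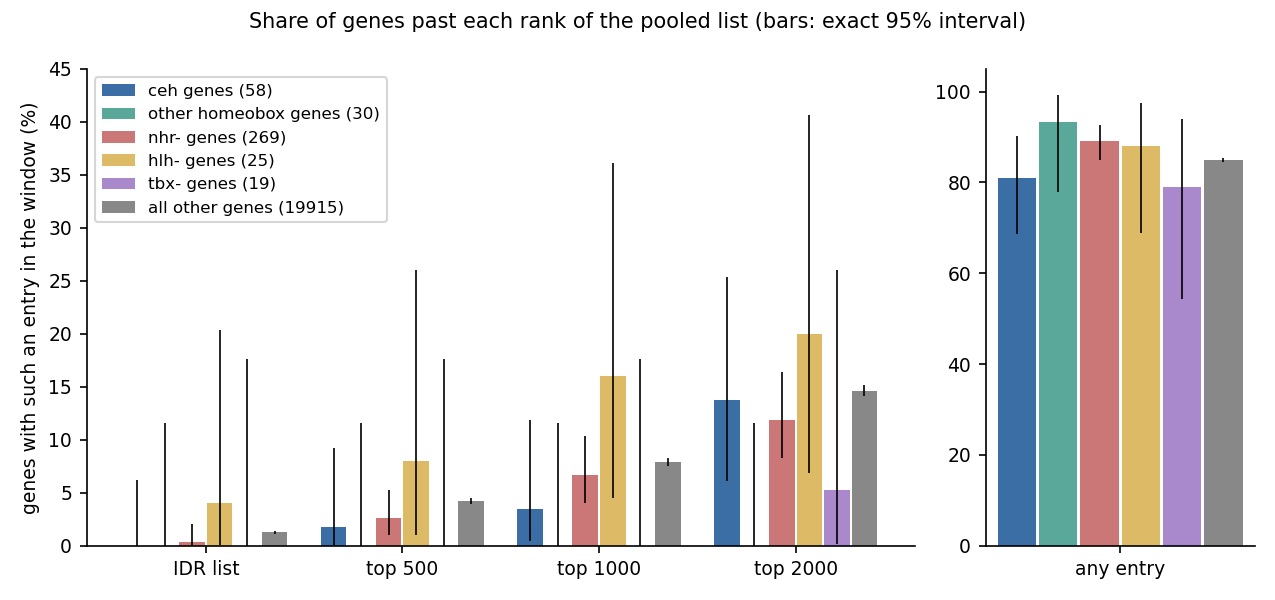
Share of genes, in percent, whose window holds a pooled entry within each rank limit, for the ceh genes, 4 other sets of transcription factor genes and all other genes, with exact 95% binomial intervals as lines. The ceh share was 0% for the IDR list and 13.8% for the first 2000 entries, against 1.25% and 14.6% of all other genes.

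A percentile was also given to each gene, by its strongest pooled signal among all 19973 genes, with genes lacking an entry tied at the bottom. The ceh genes had a median percentile of 43.3 (interval of the median 29.6 to 60.02), against 50.01 for the other genes. With entries given to the nearest 5′ end only, it was 55.3 (interval 45.6 to 68.7). Among genes with an entry, the median strongest signal was 14.2 for ceh genes and 14.1 for the other genes, and the median rank of that entry was 7697 for ceh genes and 8052 for the other genes. These levels were close, and the ceh genes spread over nearly the whole list, from rank 163 for ceh-5 to rank 28279 for ceh-36.

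Cut homeodomain proteins of the Onecut type, which carry a cut domain beside the homeodomain, are widely used in neurons. All 6 Cut-class genes had a pooled entry, against 84.9% of all genes. Their strongest signals ran from 11.5 to 23.9. The median was 17.2, against 14.1 for the other genes with an entry. The strongest belonged to ceh-38, a Onecut factor expressed widely in the nervous system. Its entry (chromosome II, 6951332 to 6951667) had a signal of 23.9 at rank 519 of the pooled list. The replicate 1 interval that held its summit had a signal of 5.31 at rank 28668, and the replicate 2 interval that held it had 15.6 at rank 580. The summit lay in intergenic sequence 26 bp upstream of the gene's 5′ end, the closest to a 5′ end of the 8 ceh genes in the first 2000, and the replicates differed widely in rank. A second entry, in a coding exon 1860 bp downstream of the 5′ end, had a signal of 19.8 at rank 1468, with 10.5 in replicate 1 and 8.70 in replicate 2. The strongest ceh-38 entry of replicate 1 lay elsewhere, in an intron 426 bp downstream of the 5′ end, with 11.9 at rank 1572.

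The sequence just upstream of ceh-38 is shown because it holds that summit. It is the RefSeq WBcel235 plus strand at chrII:6951400-6951525, ending at the last base before the gene, in lower case.
ceh-38 upstream: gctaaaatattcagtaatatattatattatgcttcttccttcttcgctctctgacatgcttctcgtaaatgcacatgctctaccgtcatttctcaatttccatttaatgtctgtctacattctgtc
The hexamer on the minus strand ends 1 base into the gene, so the last 5 letters of this run, ctgtc, are its complement. It is printed whole further below.

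Next among the Cut genes was ceh-48, a Onecut factor expressed throughout the nervous system. Its entry (chromosome IV, 6812516 to 6812851) had a signal of 20.02 at rank 1402 of the pooled list, with 10.2 at rank 3776 in replicate 1 and 6.12 at rank 22710 in replicate 2. The summit lay in an intron of ceh-48, 576 bp from its 5′ end. Here replicate 1 was the higher of the replicates, the reverse of ceh-38. The 201 bases around this summit are shown because they hold the Meis hexamer, in capitals, 89 bp from the summit. They are the RefSeq WBcel235 plus strand at chrIV:6812584-6812784.
ceh-48 summit: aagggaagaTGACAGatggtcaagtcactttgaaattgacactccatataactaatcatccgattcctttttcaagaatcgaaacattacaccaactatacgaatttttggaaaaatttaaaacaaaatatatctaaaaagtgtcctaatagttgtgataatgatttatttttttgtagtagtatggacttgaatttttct

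The Onecut genes ceh-39, ceh-41 and ceh-21 lie close together on chromosome X. ceh-39, which counts X chromosomes in sex determination, had a signal of 18.1 at rank 2410, with 5.53 in replicate 1 and 11.1 in replicate 2. Its summit lay 2872 bp upstream, and T26C11.8 starts nearer to it, at 1678 bp. ceh-21 and ceh-41 shared an entry with a signal of 16.2 at rank 4265 in the 3′ UTR of T26C11.9. That entry lay 139 bp upstream of ceh-21 and 4200 bp upstream of ceh-41, and it was listed in replicate 2 only, at 14.4 and rank 848. The weakest Cut gene, ceh-49, had a signal of 11.5 at rank 16410, inside a coding exon of the neighbouring gene ttn-1 and in neither replicate list. Of the 6 Cut genes, 3 had a strongest entry listed in both replicates, against 35.4% of the other genes with an entry. The 2 among the first 2000 were ceh-38 and ceh-48, against 14.6% of all genes. Counts in a class this small were not tested.

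NK-class factors are relatives of fly tinman and act in muscle and in particular neurons. All 7 NK genes had a pooled entry, against 84.9% of all genes. Their strongest signals ran from 9.79 to 20.2 with a median of 14.7. The highest was ceh-24, an NK2 factor of head motor neurons and vulval muscles. Its entry (chromosome V, 13811888 to 13812223) had a signal of 20.2 at rank 1327 of the pooled list, with 13.4 at rank 692 in replicate 1 and 7.12 at rank 15627 in replicate 2. The summit lay in intergenic sequence 1175 bp upstream of ceh-24, which is also the nearest 5′ end. Replicate 1 carried the higher signal, and replicate 2 was near the median of its list. The 201 bases around the summit are shown with the hexamer in capitals, 19 bp from the summit. They are the RefSeq WBcel235 plus strand at chrV:13811956-13812156.
ceh-24 summit: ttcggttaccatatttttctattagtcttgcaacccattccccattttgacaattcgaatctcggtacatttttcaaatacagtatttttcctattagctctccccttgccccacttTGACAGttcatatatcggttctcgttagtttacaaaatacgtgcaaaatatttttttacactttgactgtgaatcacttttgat

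The other NK genes were weaker. ceh-9 had a signal of 17.8 at rank 2676, 3140 bp upstream, and was listed in replicate 2 only, at 11.4. ceh-27, an NK2 factor, had 16.3 at rank 4170 in its own intron, also in replicate 2 only, at 8.75. ceh-22, which activates pharyngeal muscle genes, had 14.7 at rank 6635, with 5.45 in replicate 1 and 8.48 in replicate 2, and its summit lay in an intron of the upstream gene twk-12. ceh-51, a factor of the embryonic mesoderm, had 13.1, ceh-1 had 11.0, and ceh-28, a factor of a pharyngeal neuron, had 9.79 and was in neither replicate list. Strongest entries listed in both replicates were found at 2 of the 7 NK genes, ceh-24 and ceh-22, against 35.4% of the other genes with an entry.

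POU factors pair a POU-specific domain with a homeodomain. ceh-18 acts in the gonadal sheath cells that restrain oocyte meiosis. It had a signal of 18.8 at rank 1990, with 6.83 in replicate 1 and 9.08 in replicate 2. That summit lay in the 3′ UTR of ceh-18, 14407 bp downstream of its 5′ end, with ttr-48 starting 942 bp away. Of the 8 genes in the first 2000, ceh-18 was thus the 1 for which the nearest 5′ end was that of another gene. ceh-6, a factor of the excretory cell and of neurons, had 15.2 at rank 5689, 3265 bp upstream, and this entry was in replicate 1 only, at 13.3 and rank 757. A second ceh-6 entry, in an intron 1264 bp from the 5′ end, had 15.5 at rank 241 in replicate 1 and was not listed in replicate 2. In the pooled list it stood at rank 8276.

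The ANTP-class genes outside the named families gave the set's highest value. ceh-5 had an entry (chromosome I, 9725254 to 9725589) with a signal of 31.97 at rank 163 of the pooled list. It had 12.96 at rank 882 in replicate 1 and 18.7 at rank 308 in replicate 2. ceh-5 was thus the 1 ceh gene whose strongest entry was among the first 2000 of both replicate lists, and its signal stood below the lowest IDR signal of 35.04. The summit was 1747 bp upstream of ceh-5, the nearest 5′ end, but it lay in annotated 3′ UTR sequence, inside both eat-16 and ocrl-1, so the entry cannot be assigned to ceh-5 by position alone. The other ANTP genes were far lower. ceh-7 had 11.3, ceh-19, a factor of pharyngeal neurons, had 10.4, and ceh-23, a factor of several neuron classes, had 9.92.

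Among genes of the paired-like class, 6 of 8 had a pooled entry, against 84.9% of all genes. Their strongest signals ran from 9.30 to 15.3 with a median of 13.8. None was among the first 2000, against 14.6% of all genes. ceh-37, an Otx factor of AWB olfactory neurons, had 15.3 at rank 5624, 1971 bp upstream, in replicate 1 only at 8.21. ceh-8, a relative of Rx that acts in RIA interneurons, had 14.9 at rank 6406 in its 3′ UTR, with 5.34 in replicate 1 and 9.30 in replicate 2, and col-63 starts 716 bp from it. ceh-45, a relative of goosecoid, had 14.1, ceh-53 had 13.5, ceh-10, which specifies AIY interneurons together with ttx-3, had 12.1, and ceh-36, an Otx factor of AWC and ASE sensory neurons, had 9.30. ceh-17, a relative of Phox2, and ceh-54 had no pooled entry. Of these 6, 5 lay above the median of all single entries of the pooled list, 11.9, and ceh-36 lay below it. Each value is the strongest of a whole window, which raises it above single entries. The median strongest signal of the other genes with an entry was 14.1.

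The other classed genes were outside the first 2000. ceh-43, the worm Distal-less and a factor of dopaminergic neurons, had 16.2 at rank 4311 in its own intron, with 6.50 in replicate 1 and 6.93 in replicate 2. ceh-14, a LIM homeodomain protein, had 15.7 at rank 4919 in its own intron and was listed in replicate 2 only, at 8.08. ceh-12, a relative of HB9 that acts in motor neurons, had 14.2 at rank 7880, in replicate 2 only at 9.28, and lay 90 bp from the 5′ end of twk-47. ceh-16, the worm engrailed of seam cells, had 11.9, and ceh-2, the relative of empty spiracles, had 10.9. The BarH genes ceh-31 and ceh-30, of which ceh-30 protects male sensory neurons from cell death, had 10.3 and 10.1. Of the sine oculis-type genes, ceh-32, which acts in head morphogenesis, had 9.36 and ceh-33 had none.

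**Figure D2:**
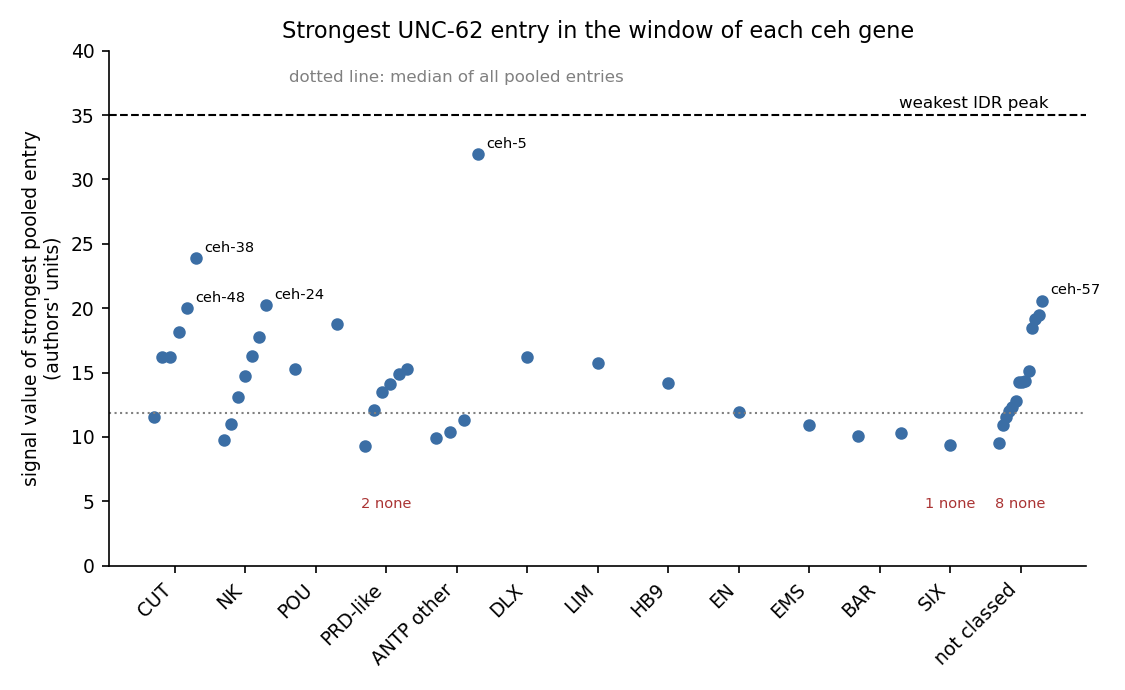
Strongest pooled signal (the authors' units) of each ceh gene by homeobox class, with 1 point per gene, the number of genes without an entry written below, a dashed line at the weakest IDR peak and a dotted line at the median of all pooled entries. ceh-5 stands highest at 31.97, below the dashed line at 35.04, and the Cut genes run from 11.5 to 23.9.

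A further 22 genes were not placed in a class, and 14 of them had a pooled entry, against 84.9% of all genes. Their strongest signals ran from 9.57 to 20.6 with a median of 14.3. ceh-57 (chromosome II, 10366952 to 10367287) had a signal of 20.6 at rank 1192, with 6.62 at rank 17703 in replicate 1 and 11.7 at rank 2257 in replicate 2. Its summit lay in an intron 176 bp from its 5′ end. ceh-91 had 19.5 at rank 1624 in an intron, with 10.2 in replicate 1 and 7.97 in replicate 2. These entries lay in introns of the named genes, whose own 5′ ends were the nearest. ceh-100 had 19.2 at rank 1775 in an intron 9206 bp from the 5′ end, with 10.2 in replicate 1 and 9.11 in replicate 2. Its window of 26503 bp is the longest of the set and held 17 entries, the most of any ceh gene.

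The remaining unclassed genes named by signal were just outside the first 2000 or lower. ceh-86 had 18.5 at rank 2153 in a coding exon, with 5.41 in replicate 1 and 10.8 in replicate 2. ceh-92 had 15.1 at rank 5871 in an intron, with 6.18 in replicate 1 and 5.45 in replicate 2. ceh-74 had 14.4 at rank 7434, 233 bp from its 5′ end, and was listed in replicate 1 only, at 12.4 and rank 1168. These 3 summits lay inside the named genes, and that of ceh-74 also lay inside cest-2.3. ceh-93 had 14.3 at rank 7656, 3249 bp upstream in an intron of R04A9.7, in replicate 1 only at 7.81. ceh-62 had 14.2 at rank 7697, in intergenic sequence 3302 bp upstream, and was in neither replicate list. Outside the 25 ceh genes with the highest signals, 22 others had a pooled entry, between 9.30 and 14.1.

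The replicates overlapped in part. Of the 47 strongest entries, 17 were listed in both replicates (36.2%, interval 22.7 to 51.5), against 35.4% of the strongest entries of the other genes. Another 13 were in replicate 1 only, 14 in replicate 2 only, and 3 in neither, those of ceh-62, ceh-49 and ceh-28. All 8 in the first 2000 of the pooled list were listed in both, against 74.9% of the other genes' strongest entries in the first 2000. Where both listed an entry, the replicate 1 values had a median of 6.50, those of replicate 2 a median of 8.48, and replicate 2 was higher for 10 of the 17. Over all 138 entries of the ceh windows, 31 were in both lists (22.5%), against 21.96% of all pooled entries.

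**Figure D3:**
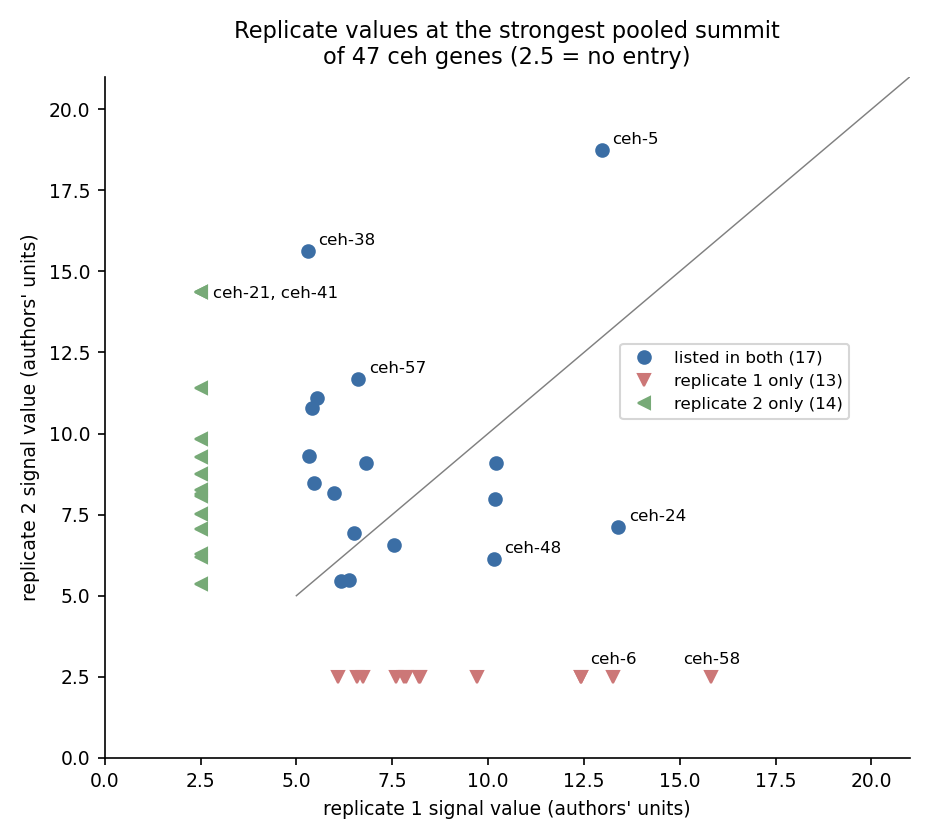
Signal in replicate 1 (horizontal) and replicate 2 (vertical), in the authors' units, at each ceh gene's strongest pooled summit, with entries missing from 1 list drawn at 2.5 on its axis, the 3 missing from both not drawn, and a line of equal values. ceh-5, at 12.96 in replicate 1 and 18.7 in replicate 2, is the 1 gene in the first 2000 of both lists.

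On its own, replicate 1 ranked other ceh genes first, and replicate 2, like the pooled list, ranked ceh-5 first. In replicate 1, 3 ceh genes held an entry among the first 500 (5.17%), against 4.12% of the other genes and 4.12% of all genes. They were ceh-57 and ceh-58, which share an entry of 15.8 at rank 208, and ceh-6 with 15.5 at rank 241, and neither entry was listed in replicate 2. The shared entry had a signal of 12.8 at rank 11774 in the pooled list, where its summit lay 511 bp upstream of ceh-58. In replicate 2 only ceh-5 held an entry among the first 500 (1.72%), against 4.25% of the other genes and 4.25% of all genes. Among the first 2000 there were 9 ceh genes in replicate 1 (15.5%), against 14.4% of the other genes and 14.4% of all genes. In replicate 2 there were 4 (6.90%, interval 1.91 to 16.7), against 14.6% of the other genes and 14.5% of all genes. Among these 4, ceh-21 and ceh-41 count the same entry, of 14.4 at rank 848. ceh-5 and ceh-38 were the 2 genes with an entry within the first 2000 of both lists, for ceh-38 at different places in its window.

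By position, 30 of the 47 strongest entries lay upstream of the 5′ end and 17 at or downstream of it. Within 1 kb of the 5′ end there were 11 (23.4%, interval 12.3 to 38.03), against 29.8% for the other genes. With entries given to the nearest 5′ end only, the share was 36.6% (interval 22.1 to 53.1), against 54.7% for the other genes. The median distance was 2167 bp for ceh genes and 2008.5 bp for the other genes. The nearest 5′ end belonged to the ceh gene in 34 cases and to another gene in 13, and 10 of the summits lay inside another gene only. A sizeable share of these windows therefore reached into neighbouring genes. The counts by side, by nearest 5′ end and by gene held are not given here for the other genes. Nothing particular to the ceh genes is read from them.

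**Figure D4:**
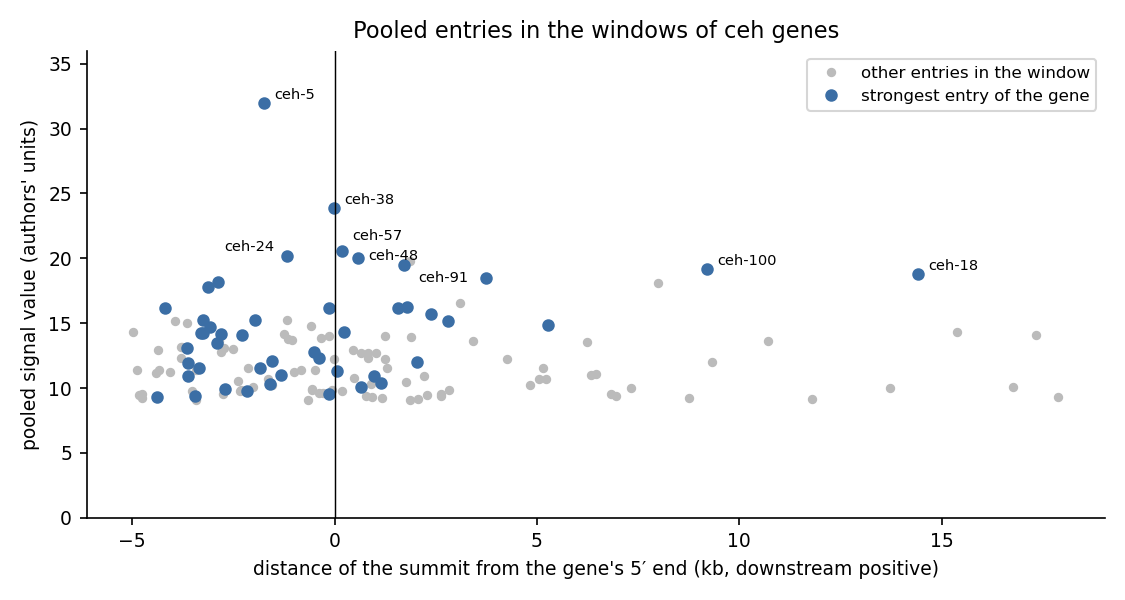
Distance of each pooled entry in the ceh windows from the gene's 5′ end in kb, negative upstream, against its signal in the authors' units, with the strongest entry of each gene in blue and the others in grey. Of the 47 strongest, 30 lie upstream and 17 at or downstream of the 5′ end.

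Introns held 14 of the strongest entries (29.8%), against 30.2% for the other genes, and intergenic sequence held 20 (42.6%), against 41.4%. A 3′ UTR held 8 (17.02%, interval 7.65 to 30.8), against 5.0% for the other genes, and a coding exon held 4 (8.51%, interval 2.37 to 20.4), against 20.7% for the other genes. For both of these features the other genes' share lay outside the ceh interval. The 8 in a 3′ UTR were those of ceh-5, ceh-18, ceh-21, ceh-41, ceh-8, ceh-53, ceh-88 and ceh-2. In 3 of them the UTR was the gene's own and in 5 it belonged to another gene, and ceh-21 and ceh-41 count the same entry. These counts are small and were not tested.

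Entries of the first 2000 fell more densely in ceh gene bodies than upstream, but the counts are small and the difference was not tested. There were 6 pairs of a gene and an entry in ceh gene bodies (2.99 per 100 kb) and 3 in the 5 kb upstream (1.03 per 100 kb). For the other genes the densities were 1.47 per 100 kb in gene bodies and 2.45 per 100 kb upstream. The 6 were in ceh-38, ceh-57, ceh-48, ceh-91, ceh-100 and ceh-18, and the 3 upstream were at ceh-5, ceh-38 and ceh-24. Counting all pooled entries, the ceh densities were 31.9 per 100 kb in gene bodies and 26.6 per 100 kb upstream, against 27.9 and 30.4 per 100 kb for the other genes. The 30 homeobox genes with other names, compared further below, had 0 pairs of the first 2000 in either part. Their densities of all pooled entries were 26.9 per 100 kb in gene bodies and 27.3 per 100 kb upstream.

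Whether a gene had an entry at all moved with the length of its window. The median window was 7727.5 bp for ceh genes and 7026 bp for the other genes, and ceh windows held 2.87 entries per 10 kb, against 2.94 in the other genes. In the shortest windows, 5515 to 6687 bp, 7 of 15 ceh genes had an entry (46.7%, interval 21.3 to 73.4), against 79.1% of the other genes of those lengths. In windows of 6688 to 7727 bp the count was 12 of 14, against 83.6% of the other genes. It was 13 of 14 in windows of 7728 to 8817 bp, against 89.8%, and 15 of 15 in the longest windows, against 95.6%. The ceh share was below that of the other genes beyond its interval in the shortest windows and not in the longer ones. The classes are quartiles of the ceh windows themselves. Among the short-window genes without an entry, ceh-81, ceh-82, ceh-84 and ceh-87 lie in a stretch of chromosome II described further below. The windows of ceh-81 and ceh-82 overlap, so these genes are not all independent, and the difference was not tested.

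**Figure D5:**
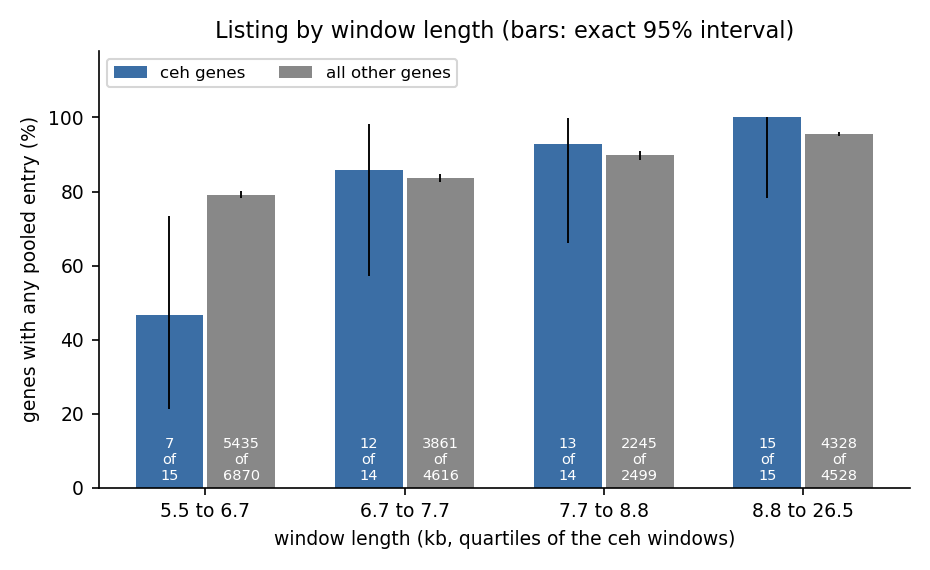
Share of genes with any pooled entry, in percent, in 4 classes of window length, for ceh genes and for the other genes, with exact 95% binomial intervals as bars. In the shortest windows 46.7% of ceh genes had an entry, against 79.1% of the other genes.

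The 11 ceh genes with no pooled entry were ceh-17, ceh-33, ceh-54, ceh-75, ceh-76, ceh-81, ceh-82, ceh-83, ceh-84, ceh-87 and ceh-90. Their windows ran from 5858 to 7818 bp with a median of 6263 bp, against a median of 8306 bp for the 47 with an entry. Reads from repeated sequence may not be placed at a single site, and how they were handled is not given. Each window was therefore scored by the percentage of its 31-base words that occur nowhere else in the genome. It was 27.7% in ceh-84, the lowest of these 11, and its part in the missing entry was not tested. The median of the 11 was 97.6%, against 98.7% for the 47 with an entry. Of the 11, 10 had an entry in at least 1 replicate list, and ceh-33 had none in any of the 3 lists. For ceh-84 it was an intron entry of 7.68 at rank 11597 in replicate 1. Each replicate list on its own held an entry for 85.9% of all genes. The share among other genes without a pooled entry is not given here, so the 10 are not read as binding.

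The strongest entries were searched for TGACAG within 100 bp of the summit on both strands. It was found in 6 of 47 (12.8%, interval 4.83 to 25.7), against 6.83% of the strongest entries of the other genes, and in 6.40% of all 30000 pooled entries. The 6 were those of ceh-38, ceh-24, ceh-48, ceh-14, ceh-49 and ceh-32. Of these, 3 were among the 8 in the first 2000 (37.5%, interval 8.52 to 75.5), against 7.28% of the other genes' entries there. The interval of the 6 includes the other genes' share. That of the 3 lies above it, but it rests on 8 genes and was not tested. The share depended on the list used. With the replicate 2 list alone it was 3 of 50 ceh genes (6.0%), against 6.58% of the other genes, and with the replicate 1 list alone 5 of 50, against 6.43%. Where each entry was given only to the gene with the nearest 5′ end, it was 8 of 41 (19.5%, interval 8.82 to 34.9). The share of the other genes, 6.54%, lay below that interval, and the difference was not tested. Over all entries in ceh windows the share was 8.70%, 12 of 138, against 6.39% of the pooled entries in no ceh window.

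Each hexamer is shown in 30 bases of RefSeq WBcel235, with TGACAG in capitals and read 5′ to 3′ on its own strand, to let the flanks be compared. The places are chrII:6951509-6951538 minus for ceh-38, chrV:13812061-13812090 plus for ceh-24, chrIV:6812581-6812610 plus for ceh-48, chrX:7530394-7530423 plus for ceh-14, chrV:6121947-6121976 minus for ceh-49 and chrV:11708906-11708935 minus for ceh-32.
ceh-38 site: caacgaattgccTGACAGaatgtagacaga
ceh-24 site: cttgccccacttTGACAGttcatatatcgg
ceh-48 site: attaagggaagaTGACAGatggtcaagtca
ceh-14 site: ctataactatttTGACAGatgtattctaat
ceh-49 site: tcacgaaatagtTGACAGgtctcgatggat
ceh-32 site: tccccccatcaaTGACAGagagccgcgcgc
The sites lay 23, 19, 89, 67, 93 and 60 bp from their summits in that order, so those of ceh-38 and ceh-24 were the closest, and a match of letters is not evidence of binding.

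The shorter core TGACA, which every TGACAG contains, was present in 20 of 47 (42.6%, interval 28.3 to 57.8), against 33.1% for the other genes and 32.4% of all pooled entries. TGATNNAT, a motif of Hox-Pbx pairs, was present in 7 (14.9%), among them ceh-5, against 15.9% for the other genes and 15.4% of all pooled entries. TGATTGAC, a Meis-Pbx composite whose end overlaps the first letters of TGACAG, was present in none (upper bound 7.55%), against 0.715% for the other genes and 0.600% of all pooled entries. For all 3 motifs the other genes' share lay inside the ceh interval.

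A list of 30 homeobox genes outside Hox and TALE that carry other names, chosen with earlier results known, gave the nearest comparison. It did not hold cone-1, described further below, whose strongest entry stood at rank 495. Entries among the first 2000 were found at 8 of the 58 ceh genes (13.8%), against 14.6% of all genes. None of these 30 had one (0%, upper bound 11.6%), and the difference between the ceh genes and the 30 was not tested. In replicate 1 alone the order was the other way round, with 9 of 58 ceh genes (15.5%), against 7 of the 30 (23.3%). In replicate 2 alone there were 4 ceh genes (6.90%), against 1 of the 30 (3.33%). The strongest of the 30 was vab-3, the worm Pax6, with 18.3 at rank 2274, followed by zfh-2 with 16.8, unc-42 with 16.1, pax-3 with 15.9 and unc-4 with 15.5. Any pooled entry was found at 81.03% of ceh genes, against 93.3% of the 30, and the median percentile was 43.3 for ceh genes and 49.6 for the 30. Among families of other transcription factors, 32 of 269 nuclear receptor genes named nhr- had an entry in the first 2000 (11.9%), as did 5 of 25 hlh- genes and 1 of 19 tbx- genes.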

How the data were processed

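UNC-62 ChIP-seq peak lists of 2 samples in build ce11 were used as deposited: 1 list per replicate, 1 pooled list and 1 IDR list. The deposited signal column is the authors' score of enrichment, and per the labels' file descriptions the lists of 30000 entries hold peaks and background as input for IDR. The aligner, peak caller and IDR cutoff are not given in the sources used here, nor are read counts, so depth is unknown. Lists in ce10, and any control library, were not analysed here.

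Genes came from Ensembl release 115 (WBcel235, the sequence of ce11) and sequence from RefSeq WBcel235. Summits were the middle of each interval, and coordinates are 1-based. A pooled entry counted as listed in a replicate where an interval of that replicate held its summit. Homeobox classes were assigned from textbook knowledge to 36 of the 58 genes. No hypothesis test was made; intervals are exact 95% binomial (Clopper-Pearson) or order-statistic intervals. Pooled signal, rank and place, with the signal in each replicate list, are given for the 25 ceh genes with the highest signal. The members and lists were chosen with earlier results of these data known. The assignment of entries to windows was tested on simulated data. The software was Python 3.11.15 with pandas 2.3.3, scipy 1.17.1, numpy 2.4.6 and matplotlib 3.10.9.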

Additional observations from a re-analysis of the deposited data

How the results depend on the processing

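Of 50 alternative settings, 38 left the values within their interval and 12 moved them. With entries counted only within 1 kb of the 5′ end, 37.9% of ceh genes had an entry, against 49.1% of the other genes, 0% had one of the first 500, and the median percentile was 25.5. Fewer entries can count in narrower windows. Restricted to windows of the middle lengths, 0% of ceh genes had an entry in the first 500, against 3.57% of the other genes. Over all 58 ceh genes, raising the limit from the first 500 to the first 2000 gave 13.8%. The share of strongest entries near the 5′ end was 40% with a 2 kb upstream window and 46.8% when near meant within 2 kb. Among entries of the first 2000, 50% were in introns, 100% were in both replicates and 37.5% held the hexamer, each over 8 genes. The hexamer share was 4.26% within 50 bp and 42.6% for the core TGACA. With either replicate list used alone, 86.2% of ceh genes had an entry, against 85.9% of the other genes. None had one in the first 119, against 1.08% of the other genes in replicate 1 and 1.22% in replicate 2. No paired analysis was possible because there is 1 group.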

Other observations

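The locus that RefSeq calls ceh-44 carries the symbol cone-1 in Ensembl and so fell outside the rule. It was looked at after the values were seen. Its window (gene on chromosome III, 2530613 to 2546420) held 12 pooled entries, the strongest with a signal of 24.2 at rank 495, in intergenic sequence 1825 bp from the 5′ end. That entry had 7.0 at rank 15272 in replicate 1 and 20.5 at rank 218 in replicate 2. Among the ceh genes only ceh-5 had a higher pooled signal. The pattern of a high replicate 2 and a low replicate 1 is the one seen at the strongest pooled summit of ceh-38.

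A stretch of chromosome II from 1730403 to 2684308, also chosen after the values were seen and bounded around ceh genes without an entry, holds 6 ceh genes, of which 1, ceh-86, had a pooled entry (16.7%). Of the 242 other genes in the stretch, 168 had one (69.4%), against 82.5% of the genes elsewhere on the chromosome. Because ceh genes without an entry set the bounds, the low ceh share follows from the choice. It cannot be weighed against the share of the other genes there. The median window was 6320 bp for these ceh genes, 6407.5 bp for the other genes there and 6851 bp for the genes elsewhere.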
